A study of Mus musculus with 15 samples.

Results

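The oligoadenylate synthetases of the mouse were followed across 5 groups of NOTCH1-driven leukemias. The family was taken as 9 genes of the 39827 in the count table, Oas1a, Oas1b, Oas1c, Oas1e, Oas1g, Oas2, Oas3, Oasl1 and Oasl2, picked by name after their CPM (counts scaled to a common library size) over the 5 groups had been seen. The levels of these genes and the differences between groups are therefore given as a description, with no test. The other 3 mouse Oas genes of the table, Oas1d, Oas1f and Oas1h, had between 0 and 3 counts in every group. All 9 members passed the filter on low counts.

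Oligoadenylate synthetases are enzymes that bind double-stranded RNA and then join ATP into short 2′-5′-linked chains called 2-5A. These chains act as a second messenger of the antiviral response. Most of the genes are switched on by interferons through STAT and IRF factors, and lymphocytes also express them at a base level. In the mouse the Oas1 gene has been copied many times, and several of the copies make proteins without synthetase activity.

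Total RNA came from cells labelled as leukemic T cells of the spleen. Each leukemia arose in lethally irradiated C57BL/6J hosts that had received bone marrow progenitors (GFP+Lineage-cKit+Sca1+) carrying ΔE-NOTCH1, an activated form of the NOTCH1 receptor delivered by a retrovirus. Every group shared this transgene and this host. The groups, of 3 libraries each, were WT0 with PBS, WT0 with ERG-245, WT6, KO7 and KO3. WT0 and WT6 were leukemias of Bcat1 wild-type progenitors, and KO7 and KO3 were leukemias of Bcat1 knock-out progenitors. ERG-245, an inhibitor of BCAT1, the cytosolic enzyme that transfers the amino group of branched-chain amino acids, was injected intraperitoneally in 3 doses of 30 mg/kg at 8 h intervals. PBS is the labelled treatment of all other groups, although the alignment names of the WT0 control libraries in the table header carry the letters DMSO. The comparisons ask what inhibition or loss of BCAT1 does to gene expression in these leukemias.

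The libraries held 17441292 to 28902573 counts on genes, and Bcat1 itself had 17.8 ± 0.955 CPM in WT0 with PBS, 35.2 ± 0.416 in WT6, 2.09 ± 0.596 in KO7 and 6.95 ± 0.845 in KO3 (SD, n = 3). All 13 T cell markers had counts in every group. Each group had its own leading T cell receptor beta segment. In WT0, Trbv17 made up 39.7% of the Trbv counts without the inhibitor and 0.930% after it, when Trbv16 took 49.9%, so the inhibitor and a difference in leukemic clone cannot be told apart. The leading segment was Trbv19 for WT6, Trbv15 for KO3 and Trbv5 for KO7. The labels do not say whether the 3 libraries of a group came from separate mice, and their biological coefficient of variation was 2.18%, against 41.9% between leukemias of 1 genotype. The p-values between groups below measure only the spread between such libraries.

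All 9 members lie on chromosome 5, in 2 places (RefSeq annotation of GRCm38.p6). Oasl2 (chr5:114896926-114912245, plus strand) and Oasl1 (chr5:114923143-114937911, plus strand) lie side by side. The others form a second cluster that starts 5792421 bases further on. It runs from Oas2 (chr5:120730333-120749886, minus strand) through Oas3 (chr5:120753098-120777684, minus strand), Oas1e (chr5:120786312-120795530, minus strand), Oas1c (chr5:120800194-120812540, minus strand), Oas1b (chr5:120812635-120824163, plus strand) and Oas1g (chr5:120876142-120887613, minus strand) to Oas1a (chr5:120896256-120907544, minus strand). Oas1c and Oas1b point away from each other across 94 bases. No other gene of the table overlaps a member.

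Copies of a gene can share reads. Of the 50-base windows of the Oas1a transcript, 57.6% occur letter for letter in Oas1g or Oas1b, and 54.7% of those of Oas1g occur in Oas1a or Oas1b. With 100-base windows the shares are 40.9% and 38.2%. Read pairs that lie wholly in such stretches can map to more than 1 place, and multimapping reads were not counted, so Oas1a and Oas1g are the least certain members. The share was 10.7% for Oas1c, 11.3% for Oas1e and 3.19% for Oas1b with 50-base windows, and 0% for these 3 genes with 100-base windows. It was 0% for Oas2, Oasl1 and Oasl2 at both lengths.

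The stretches in front of several members hold the core letters of the interferon-stimulated response element, the site bound by STAT and IRF complexes. They are shown because copies with nearly the same stretch, Oas1a, Oas1g and Oas1b, differ in their levels below. The RefSeq promoter table (GRCm38.p6) matched 6 of the 9 members, Oasl2, Oasl1, Oas3, Oas1c, Oas1g and Oas1a. Capitals mark its match, a pair of GAAA repeats with a gap of 2 bases, sought on both strands, where matches may overlap. For Oas1a, Oas1g and Oas3 the 100 bases before the start in that table are printed, in the direction of the gene, at chr5:120907526-120907625, chr5:120887614-120887713 and chr5:120777660-120777759 on the minus strand. Between Oas1c and Oas1b all 94 bases are printed in the direction of Oas1b, at chr5:120812541-120812634 on the plus strand.
Oas1a: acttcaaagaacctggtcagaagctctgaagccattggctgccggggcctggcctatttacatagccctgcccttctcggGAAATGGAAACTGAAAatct
Oas1g: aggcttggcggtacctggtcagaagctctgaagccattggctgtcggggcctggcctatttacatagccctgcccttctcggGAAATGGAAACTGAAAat
Oas3: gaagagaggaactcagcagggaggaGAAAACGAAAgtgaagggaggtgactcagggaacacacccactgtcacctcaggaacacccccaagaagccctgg
Oas1c to Oas1b: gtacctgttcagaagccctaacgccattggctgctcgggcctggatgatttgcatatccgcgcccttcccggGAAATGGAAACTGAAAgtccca

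Oas1a, Oas1g and the stretch between Oas1c and Oas1b hold the same run of letters, in which 2 copies of the motif overlap. Counted from the start in the promoter table, it ends 5 bases before Oas1a and 3 before Oas1g. Oas1b has no entry there, and the run ends 7 bases before the first base of the annotated gene. The starts in that table lie 19 bases inside the annotated gene for Oas1a, 25 for Oas3 and 26 for Oas1c, and at its first base for Oas1g. For Oas1a, 15 of the 16 bases of the run therefore fall inside the gene as annotated. Oas3 holds 1 copy, 75 to 66 bases before its start in the table. The 300-base windows of Oasl1 and Oasl2 held no match. Their starts in the table lie 97 and 8 bases inside the annotated genes, so the Oasl1 window reaches less far in front of its gene. Among all 32851 promoter windows of that length, 3.44% held a match. The gamma-activated site TTCNNNGAA, present in 8.30% of the windows, matched in Oas1a alone among the 6 members, and GTGGGAA, a core of the CSL site used by NOTCH and present in 6.38%, matched in none of them. The 250 bases before the start were 82.8% identical between Oas1a and Oas1g.

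Oas1b is annotated as a transcribed pseudogene, because the reference strain carries an early stop in it. Full-length Oas1b is known for restricting flaviviruses. The reading frame of the Oas1b-203 transcript ran 252 codons before its first stop, against 367 in Oas1a-201. The stop lies in exon 4 of Oas1b, within the stretch chr5:120821287-120821331 on the plus strand. The matching stretch of Oas1a lies in exon 4 at chr5:120899168-120899212 on the minus strand (GENCODE transcripts, GRCm38). Both are printed so that the codons can be compared. Capitals mark codon 253 of Oas1b, a TGA stop, and codon 258 of Oas1a.
Oas1b: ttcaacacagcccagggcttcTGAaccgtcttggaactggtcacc
Oas1a: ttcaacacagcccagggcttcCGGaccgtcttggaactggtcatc

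The counts of Oas1b below are of its RNA. They say nothing of a protein.

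**Figure D1:**
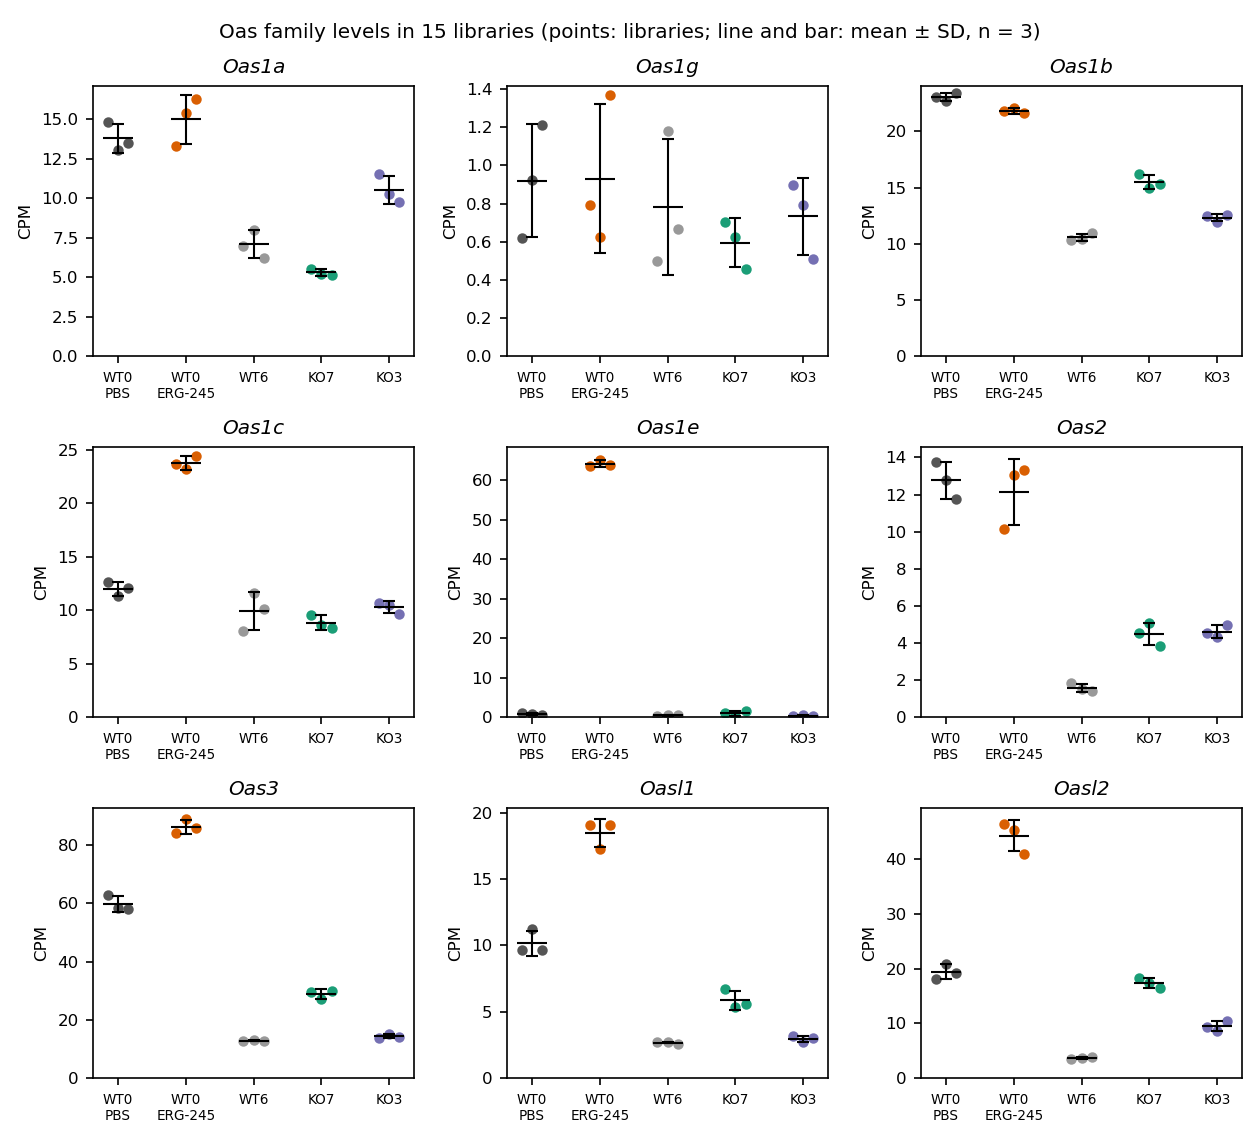
CPM of each Oas member (vertical axes, from 0, with a scale of its own in each panel) in the 15 libraries by group; points are libraries and the line and bar are the mean ± SD of 3. Oas1e stands at 63.6 to 65.2 CPM in WT0 with ERG-245 and at 1.53 or less in every other library, and Oas2, Oas3, Oasl1 and Oasl2 are lowest in WT6.

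Oas1e had the widest range of the family. Its libraries held 1200, 1251 and 1259 counts in WT0 with ERG-245, which is 63.6, 65.2 and 63.8 CPM. They held 25, 20 and 10 counts in WT0 with PBS, 12, 15 and 11 in WT6, 23, 7 and 27 in KO7 and 8, 12 and 7 in KO3. The ERG-245 libraries were therefore far above all others, and the other 4 groups overlapped with their neighbours in order of level. Oas1e is one of the Oas1 copies that have been studied little. The log2 difference between ERG-245 and PBS in WT0 was 6.18 (SE 0.117).

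The neighbour of Oas1e, Oas1c, was also highest with ERG-245. Oas1c had 23.6, 23.2 and 24.4 CPM there and 12.6, 11.3 and 12.1 with PBS, a log2 difference of 0.98 (SE 0.0811). Its other groups were close, at 9.95 ± 1.77 CPM in WT6, 8.84 ± 0.666 in KO7 and 10.3 ± 0.544 in KO3 (SD, n = 3), and WT6 overlapped with both knock-outs. Oas1b, which starts 94 bases from Oas1c on the other strand, had no such step. It had 23.0, 22.7 and 23.4 CPM with PBS and 21.8, 22.0 and 21.6 with ERG-245, which is lower in every library, with a log2 difference of -0.08 (SE 0.0643). Oas1b was lowest in WT6, with 10.4, 10.4 and 10.9 CPM, and intermediate in KO7 with 16.2, 15.0 and 15.3 and in KO3 with 12.5, 12.0 and 12.6. No neighbouring groups in its order overlapped.

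Oas1a, a synthetase with full activity, followed an order of its own. It had 14.8, 13.0 and 13.5 CPM in WT0 with PBS and 13.3, 15.4 and 16.3 with ERG-245, which overlap. WT6 held 6.99, 8.03 and 6.25, KO7 5.53, 5.23 and 5.17 and KO3 11.5, 10.3 and 9.78. The knock-outs lay on opposite sides of WT6 without overlap, KO7 lower by log2 -0.42 (SE 0.116) and KO3 higher by 0.57 (SE 0.0967). Oas1g stayed between 0.455 and 1.37 CPM in all libraries, and every pair of neighbours in its order overlapped.

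Oas3 and Oas2, which carry several synthetase units in 1 protein, were both lowest in WT6. Oas3 had 62.9, 58.4 and 57.9 CPM in WT0 with PBS, and 84.0, 88.8 and 85.7 with ERG-245. WT6 held 12.8, 13.1 and 12.9, KO7 29.7, 27.1 and 29.9 and KO3 14.0, 15.2 and 14.3. All 5 groups of Oas3 stood apart, and the highest mean was 6.67 times the lowest. Oas2 had 13.8, 12.8 and 11.8 CPM in WT0 with PBS, and 10.1, 13.0 and 13.3 with ERG-245. Its values were 1.83, 1.53 and 1.42 for WT6, 4.52, 5.05 and 3.86 for KO7 and 4.53, 4.34 and 4.98 for KO3. For Oas2 the treated and untreated WT0 groups overlapped, as did KO7 and KO3. Its highest mean was 8.01 times its lowest.

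The Oas-like genes carry ubiquitin-like repeats. Oasl2 is an active synthetase, while Oasl1 lacks that activity and is known for holding back translation of Irf7. Oasl2 had 18.1, 20.9 and 19.3 CPM in WT0 with PBS, and 46.4, 45.2 and 41.0 with ERG-245. It had 3.59, 3.74 and 3.81 CPM in the WT6 libraries, 18.4, 17.4 and 16.5 in those of KO7 and 9.30, 8.69 and 10.5 in those of KO3. Of the neighbours in this order, only untreated WT0 and KO7 overlapped. Oasl1 had 9.63, 11.2 and 9.64 CPM in WT0 with PBS, and 19.1, 17.3 and 19.1 with ERG-245. WT6 was again lowest for Oasl1, with 2.73, 2.71 and 2.61, below KO3 with 3.16, 2.76 and 3.00 and KO7 with 6.69, 5.34 and 5.57, and no neighbours in that order overlapped. The highest mean was 11.9 times the lowest for Oasl2 and 6.87 times for Oasl1.

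Of the Oas genes outside the family as taken here, Oas1h had 0 counts in all 15 libraries. A count of 0 allows up to 0.104 to 0.172 CPM of unadjusted totals per library (3 counts, counting error only). Oas1d, known from oocytes, had 1 count in all, in WT0 with ERG-245. Its position in the second cluster and that of Oas1f and Oas1h are drawn in the map of the cluster.

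**Figure D2:**
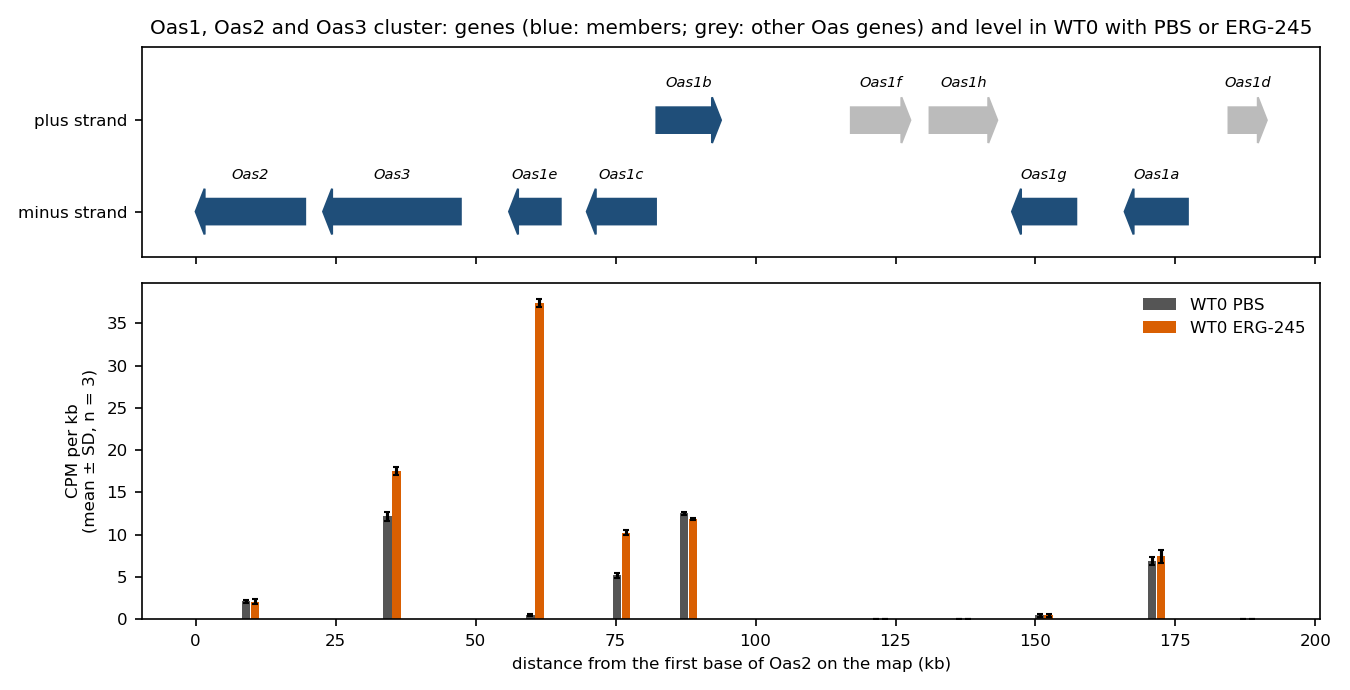
Upper panel, genes of the second cluster drawn to scale along the chromosome (horizontal axis in kb from the first base of Oas2; arrows show strand; blue members, grey other Oas genes); lower panel, CPM per kb of merged exons (vertical axis from 0; mean ± SD, n = 3) in WT0 with PBS (grey) and ERG-245 (orange). The tallest bar is Oas1e with ERG-245, next to Oas1c, while Oas1b, on the other strand, has bars of 12.5 and 11.8.

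Levels of different genes were compared per kilobase of merged exons. In WT0 with PBS the most abundant members on that scale were Oas1b at 12.5 and Oas3 at 12.2 CPM per kb, followed by Oas1a at 6.85 and Oasl2 at 6.18. With ERG-245 Oas1e led at 37.4, followed by Oas3 at 17.5 and Oasl2 at 14.1. Oas1b was the most abundant in WT6 at 5.74, in KO7 at 8.42 and in KO3 at 6.70. The sum over the 9 members was 50.4 ± 0.859 CPM per kb in WT0 with PBS, and 109 ± 1.10 with ERG-245 (SD, n = 3). It was 19.5 ± 1.29 for WT6, 30.5 ± 1.57 for KO7 and 25.02 ± 0.608 for KO3 (SD, n = 3). Oas1e made up 0.987% of the sum in WT0 with PBS and 34.3% with ERG-245. Without Oas1e the sum was 49.9 ± 0.709 with PBS and 71.7 ± 0.692 with ERG-245. In bulk samples fewer cells of a type and less RNA per cell cannot be told apart.

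**Figure D3:**
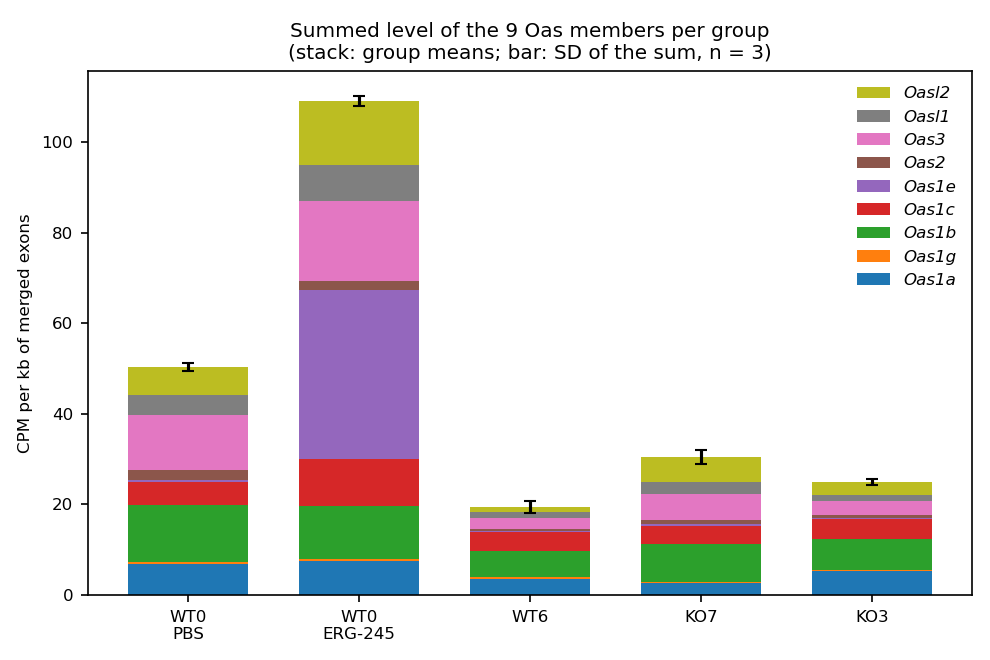
Summed level of the 9 members per group (stacked bars from 0, CPM per kb of merged exons; each colour 1 member, group means of 3 libraries; black bar the SD of the sum). The stack reaches 109 with ERG-245, where Oas1e takes 34.3%, and 19.5 in WT6.

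The differences between groups are set out next by comparison, as log2 differences with the SE of the edgeR fit and as the number of members whose libraries did not overlap. The members were chosen on these levels, so nothing is read from the counts. In WT0 with ERG-245 against PBS, the libraries of 5 members, Oas1e, Oas1c, Oas3, Oasl1 and Oasl2, lay wholly above those of PBS and those of 1, Oas1b, below, beside 34.1% and 33.8% of the 15948 genes tested. The log2 differences of members not yet given were 0.53 for Oas3 (SE 0.0421), 0.85 for Oasl1 (SE 0.0872) and 1.18 for Oasl2 (SE 0.0631), and Oas1a, Oas1g and Oas2 had values of 0.12, 0.05 and -0.08. The median over the 9 members was 0.53, beside 0.00 over all genes.

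In KO7 against WT6 the libraries of 5 members lay wholly above and those of 1, Oas1a, below, beside 32.8% and 37.2% of all genes. Oasl2 had the largest difference, log2 2.24 (SE 0.0977), followed by Oas2 at 1.47, Oas3 at 1.16, Oasl1 at 1.13 and Oas1b at 0.56. Oas1e had a difference of 1.08, with libraries that overlapped. The median was 1.08, beside -0.03 over all genes.

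KO3 was compared with the same 3 WT6 libraries, so the knock-out comparisons share their controls and are set side by side only. There the libraries of 6 members lay wholly above and those of 0 below, beside 29.2% and 33.5% of all genes. Oas2 differed by log2 1.52 (SE 0.162), Oasl2 by 1.36 (SE 0.108), Oas1a by 0.57, Oas1b by 0.22, Oas3 by 0.17 and Oasl1 by 0.14. The median over the members was 0.17, beside -0.02 over all genes.

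Between the knock-out leukemias, KO3 against KO7, the libraries of 2 members, Oas1a and Oas1c, lay wholly above and those of 4, Oas1b, Oas3, Oasl1 and Oasl2, below, beside 36.9% and 35.1% of all genes. Oas3, Oasl1 and Oasl2 differed by log2 -0.99, -0.99 and -0.88 (SE 0.0641, 0.138 and 0.0841), and Oas2 by 0.04. The median was -0.33, beside 0.01 over all genes.

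Of the wild-type leukemias, WT6 had the lower mean for every member. In WT6 against WT0 with PBS the libraries of 0 members lay wholly above and those of 6 below, beside 37.7% and 36.4% of all genes. The differences reached log2 -2.99 for Oas2 (SE 0.132), -2.39 for Oasl2, -2.21 for Oas3 and -1.92 for Oasl1, with a median of -1.12, beside 0.00 over all genes. Set between the wild-type means, KO3 lay between WT6 and WT0 with PBS for 7 members and below both for Oas1e and Oas1g. KO7 lay between them for 5 members, below both for Oas1a, Oas1c and Oas1g and above both for Oas1e.

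**Figure D4:**
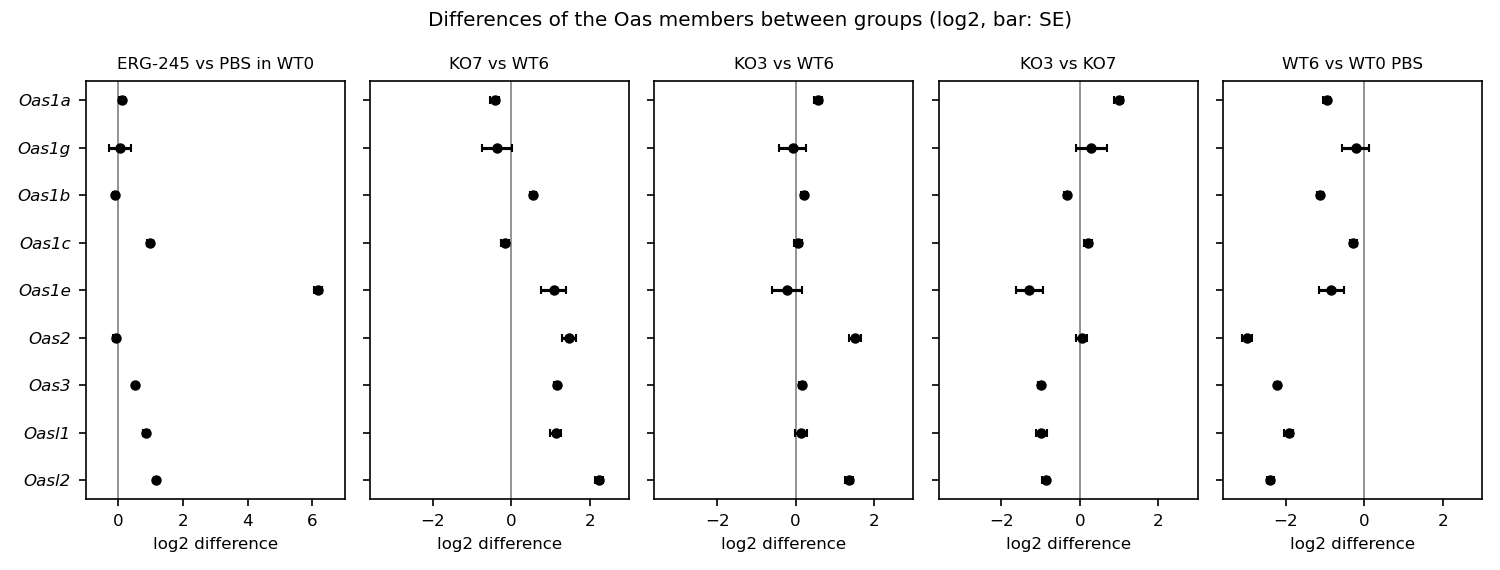
Log2 difference between groups of each Oas member (horizontal axes, first group minus second; bars are the SE of the edgeR fit over 15 libraries; the first panel has a wider scale). Oas1e stands alone at 6.18 in the first panel, and all 9 points lie left of 0 in WT6 against WT0 with PBS.

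With the counts of each leukemia summed, 2 knock-out leukemias were set against 2 wild-type ones (WT6 and WT0 with PBS). The member differences ran from log2 -0.73 for Oas3 (SE 0.772) to 0.24 for Oasl2 (SE 0.826), and 7 of the 9 lay below 0. These signs rest on single leukemias. Leaving out 1 leukemia at a time turned the sign of 7 members. Without WT0 with PBS, 7 members lay above 0, among them Oas3 at 0.77, Oas2 at 1.52, where it was -0.65 with all 4, and Oasl2 at 1.89. The wild-type side is then WT6 alone. Of the pathway genes described next, 0 of the 70 tested passed edgeR's adjusted threshold in this comparison, where 0% of 17226 genes did. At an unadjusted p under 0.05 there were 226 of all genes and 2 of the pathway genes, and DESeq2 also called 0 pathway genes. A difference by genotype was thus not detectable in the pathway genes with 2 leukemias of each.

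Genes of the 2-5A route and of the interferon pathway outside the family were tested with the same edgeR fit over all genes, at an adjusted p of 0.05. With ERG-245, 33.0% of all genes rose and 32.8% fell. In KO7 against WT6 the shares were 32.2% and 36.7%, in KO3 against WT6 27.7% and 32.0%, in KO3 against KO7 36.1% and 34.6%, and in WT6 against WT0 with PBS 36.8% and 35.6%. Akap7, whose protein can degrade 2-5A, fell in WT6 against WT0 with PBS from 15.6 to 5.97 CPM (adjusted p = 5.99e-22), and rose against WT6 in KO7 to 10.3 (adjusted p = 6.92e-10) and in KO3 to 7.84 (adjusted p = 0.00164). Abce1, an ATPase that recycles ribosomes, rose with ERG-245 from 215 to 240 CPM (adjusted p = 3.14e-07) and fell in KO7 against WT6 from 255 to 212 CPM (adjusted p = 7.65e-15). Pde12, a phosphodiesterase that degrades 2-5A, rose in WT6 against WT0 with PBS from 39.6 to 46.4 CPM (adjusted p = 8.11e-06) and fell against WT6 in KO7 to 41.3 (adjusted p = 0.000845) and in KO3 to 42.7 (adjusted p = 0.0162). The last call was lost without replicate 2 of KO3 or replicate 1 of WT6, with log2 differences of -0.10 and -0.11 in place of -0.12. With ERG-245, Pde12 did not pass the test, at 40.1 CPM.

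Upstream of the family, the 11 interferon ligands of the list were at or near 0. None passed the filter on low counts in the fit over libraries. Ifng had 7 to 26 counts per group of 3 libraries, and Ifnb1 had 4 counts in KO7, 1 in KO3 and 0 elsewhere. Of the 6 interferon receptors, 5 rose and Ifnlr1 fell with ERG-245, with Ifngr1, a chain of the type II receptor, going from 79.9 to 112 CPM (adjusted p = 1.38e-22). All 6 fell in KO3 against WT6, Ifngr1 from 266 to 120 CPM (adjusted p = 1.25e-50). In KO7 against WT6, 2 rose, among them Ifnar2, a chain of the type I receptor (54.1 to 82.2 CPM), and 2 fell. In WT6 against WT0 with PBS 5 rose and 0 fell.

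Among the 11 kinases and transcription factors of the interferon pathway, 4 rose and 6 fell with ERG-245. Irf7, the main amplifier of type I interferon, rose from 64.4 to 97.5 CPM (adjusted p = 1.71e-22) and Irf9, the DNA-binding part of the ISGF3 complex, from 71.0 to 90.7. Tyk2, a receptor kinase, fell from 85.1 to 49.1 CPM. In KO7 against WT6, 5 rose and 3 fell, with Irf7 going from 27.4 to 50.8, Irf9 from 36.3 to 67.2 and Stat2 from 42.2 to 65.4 CPM. In KO3 against WT6, 4 rose and 4 fell, and Tyk2 went from 64.4 to 108 CPM. Irf7 and Irf9 fell in WT6 against WT0 with PBS by 1.23 and 0.97 on the log2 scale.

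The 5 inhibitors of the pathway split in most comparisons. Usp18, the ISG15 protease that blocks the type I receptor, rose in KO7 against WT6 from 6.10 to 16.6 CPM (adjusted p = 9.20e-23) and was at 4.74 in KO3. Socs1, which blocks JAK kinases, rose in WT6 against WT0 with PBS from 15.6 to 48.0 CPM and fell in KO3 against WT6 to 30.0. All 5 inhibitors fell in KO3 against WT6.

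Of the 13 sensors of foreign nucleic acid, 7 rose and 4 fell with ERG-245. Mavs, the adaptor of the RNA sensors, fell from 54.1 to 32.6 CPM (adjusted p = 3.55e-22), and Zbp1, a sensor of Z-form nucleic acid, rose from 13.7 to 22.6. Ifih1, the sensor MDA5, was lowest in WT6 at 14.1 CPM, and rose against WT6 in KO7 to 24.97 (adjusted p = 3.49e-19) and in KO3 to 24.2 (adjusted p = 3.49e-18). Cgas fell against WT6 in both, from 25.6 to 12.2 CPM in KO7 and 15.6 in KO3.

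The list of other interferon-stimulated genes held 32 genes, of which 31 were tested. With ERG-245, 19 rose and 3 fell, with a median log2 difference of 0.32. Ifit1, which binds foreign RNA ends, rose from 12.4 to 54.4 CPM (adjusted p = 9.62e-44), Ifi35 from 31.1 to 101 and Rsad2, the antiviral enzyme viperin, from 361 to 535. In KO7 against WT6, 22 rose and 5 fell, with Ube2l6, the conjugating enzyme of ISG15, going from 86.0 to 441 CPM (adjusted p = 1.19e-71), Rsad2 from 72.3 to 326 and Isg15 from 32.9 to 129. In KO3 against WT6, 9 rose and 5 fell. Samd9l, a brake on cell growth, fell from 48.6 to 19.5 CPM (adjusted p = 7.75e-35), and Rsad2 was at 69.0. In KO3 against KO7, 4 rose and 21 fell, and in WT6 against WT0 with PBS 7 rose and 21 fell, Rsad2 from 361 to 72.3.

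Over the 69 pathway genes tested, 38 rose and 15 fell with ERG-245, 39 and 18 in KO7 against WT6, 18 and 27 in KO3 against WT6, 12 and 40 in KO3 against KO7, and 28 and 36 in WT6 against WT0 with PBS. The shares of all genes called in these comparisons, given above, are the measure for these counts. Other reads of the same libraries moved as well, and their part in these results was not tested. With ERG-245 the 8 plasma cell markers summed to 2369 to 2411 CPM, where PBS had 782 to 791, and the 11 B cell markers to 1392 to 1449, where PBS had 813 to 822. The 13 T cell markers went the other way, from 4163 to 4205 CPM with PBS to 3261 to 3344, as did the 9 platelet markers, from 192 to 198 down to 40.9 to 45.6. The 9 mast cell and basophil markers summed to 21.1 to 24.2 CPM in WT0 with PBS and 155 to 161 with ERG-245, and all 9 had counts in every group. The 11 neutrophil markers summed to 69.9 to 72.1 CPM and 4.66 to 6.05, with Ly6g at 0 in the latter. In WT6 the plasma cell markers stood at 7455 to 7783 CPM, against 2031 to 2090 in KO7 and 2372 to 2414 in KO3, and the B cell markers at 1430 to 1460, against 2294 to 2311 and 842 to 855. All markers of these lists had counts in every group except Ly6g. The 16 macrophage and monocyte markers, all with counts in every group, summed to 2168 to 2270 CPM in WT6, 4408 to 4423 in KO7 and 1756 to 1773 in KO3. The 12 erythroid markers, also all with counts, summed to 10419 to 11980 CPM in WT6, 51378 to 53192 in KO7 and 9947 to 10473 in KO3. In WT0 the macrophage and monocyte markers summed to 1375 to 1402 CPM with PBS and 1841 to 1872 with ERG-245. The erythroid markers there summed to 35896 to 37081 CPM with PBS and 43727 to 47511 with ERG-245. The 10 markers of plasmacytoid dendritic cells, which can make much interferon, summed to 765 to 832 CPM in WT6 and to 159 to 247 in the other groups, with Siglech at 0 in KO7 and Klk1 at 0 in all groups but WT0 with PBS. Not every marker of that list followed the sum. Bst2 had 45.0 CPM in WT6 and 47.5 in KO3, while Irf8 was highest in WT6, at 66.0 CPM.

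**Figure D5:**
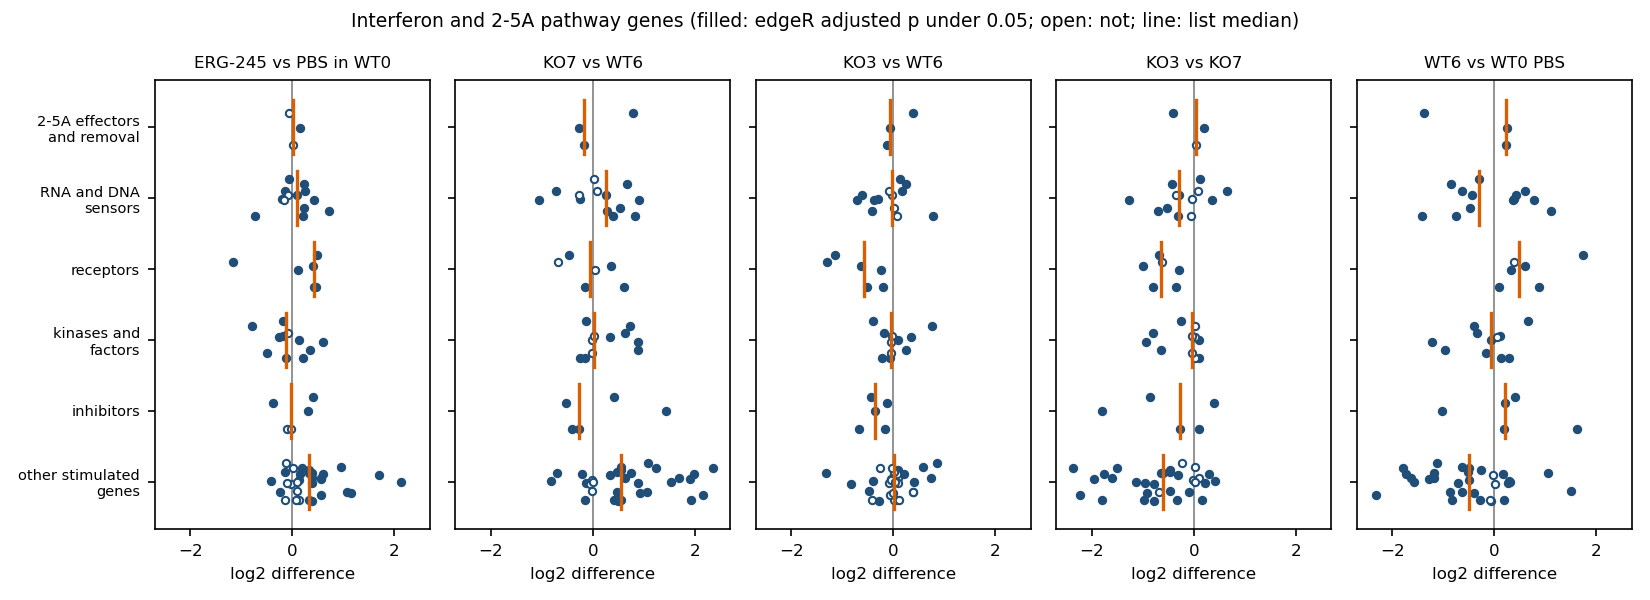
Log2 difference between groups (horizontal axes, first group minus second) of the 69 tested genes of 6 pathway lists (rows; points are jittered); filled points passed edgeR's adjusted p of 0.05, open points did not, and the orange line is the median of the list. The other interferon-stimulated genes have a median of 0.55 in KO7 against WT6, 0.02 in KO3 against WT6 and -0.50 in WT6 against WT0 with PBS.

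Neighbours of the clusters did not all follow the members. Dtx1, a NOTCH target that lies 18466 bases before Oas2, had 662 CPM in WT0 with PBS and 538 with ERG-245, and was highest in WT6 at 1179, where Oas2 and Oas3 were lowest. It fell against WT6 by 0.64 on the log2 scale in KO7 and by 1.07 in KO3 (adjusted p = 2.34e-37 and 1.41e-51). On the other side, Hectd4, 297865 bases past the cluster, had 338 CPM in WT0 with PBS and 234 with ERG-245, and the other leukemias had 142 (WT6), 272 (KO7) and 118 (KO3). Trafd1, a regulator of innate immune signalling 450077 bases past the cluster, rose with ERG-245 from 48.7 to 72.1 CPM and in KO7 against WT6 from 43.9 to 66.2 (adjusted p = 4.67e-20 and 3.87e-21). The gene next to the Oasl pair, 2210016L21Rik, 4243 bases away, stayed between 31.5 and 36.4 CPM in the group means.

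The members were also compared by their pattern over the 15 libraries, as Pearson's r of log2 CPM. The libraries of a group are not independent, so the values rest on 5 groups and describe these libraries only. Oas3 and Oasl1 had r = 0.99, Oas1b and Oas3 0.97, Oas1b and Oas2 0.94 and Oas1c and Oas1e 0.93. All values for Oas1e rest mostly on the ERG-245 group, since its other libraries held only 7 to 27 counts. Oas1a reached no more than 0.75, with Oas1c, and Oas1g no more than 0.50, with Oas1a. Of 10545 genes averaging 5 CPM or more, the one most like Oas3 was Uba7, the activating enzyme of ISG15, at 0.99, and Blm and Diaph3 came next. The genes most like Oasl1 were Blm, Cenpa and Rad21, those most like Oas1b were Odf2, Wdhd1 and Ncapd2, and those most like Oas2 were Arhgap21, Cdt1 and E2f1. For Oasl2 they were Rpain, Slc39a8 and Atpif1, for Oas1a Herc3, Mecr and Hnrnpa1, for Oas1c Traf5, Hras and Rpap3, and for Oas1e Rfesd, Col4a2 and Psmd5. Each of these had r of at least 0.95. Such a match was common for some members and rare for others, since 144 of the 10545 genes reached it with Oas3, 115 with Oas1b and 110 with Oasl1, but 17 with Oas1e, 11 with Oas1a and 3 with Oas1c.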

How the data were processed

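RNA of 15 libraries was measured by stranded mRNA sequencing (TruSeq, per the labels' protocols). The deposited table holds raw counts of read pairs per gene, made by the authors with featureCounts 2.0.1, per the file header (pairs with both ends mapped, exons, a minimum overlap of 25 bases, strand setting 2, no option for multimapping reads, a modified RefSeq annotation of GRCm38.p6). The submitters' processing notes name the build mm10 and, as tools, STAR, Trim Galore, DESeq2 and Subread. Gene lengths are the merged exon lengths that the authors deposited beside the counts. Of 39836 lines 9 were broken (Neb, Mycbp2 and Huwe1) and were left out. Symbols were found for 39743 of 39827 gene IDs.

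From the counts, CPM were computed on TMM-adjusted totals, and edgeR 4.0.16 (R 4.3.3) was fitted to 15948 genes kept by filterByExpr, with 1 coefficient per group, its quasi-likelihood test and Benjamini-Hochberg adjustment over all genes. Between genotypes, counts were summed per leukemia. The fits were tested on simulated data. Alternatives were RLE factors, library totals, no filter, DESeq2 1.42.0, only the groups compared, a replicate block and each library left out. Named pathway genes were up to 4 per list and comparison with the smallest p, and others chosen after their values were seen. Genes most alike were the 3 with the highest r per member, and neighbours the 5 tested genes on each side. The members, lists and rules were chosen with earlier results of these data known, and no test of the members is reported. A gene of the 2-5A list is not reported here and is in no count of pathway genes. The alias Ddx58 stands for Rigi. Motifs were sought in 250 bases before to 50 after each start.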

Additional observations from a re-analysis of the deposited data

Results flagged for a closer look

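Some genes differed from WT6 in opposite directions in the knock-out leukemias, with all 3 libraries of KO7 on one side of WT6 and all 3 of KO3 on the other. For Oas1a the log2 difference from WT6 was -0.42 in KO7 and 0.57 in KO3. This difference was not tested, since Oas1a was chosen by its levels. The search covered only the 9 members and the pathway genes with the smallest p per list and comparison. The other 6 genes found, which could only be of the pathway, showed the reverse, higher in KO7 and lower in KO3. How many of all genes meet this rule was not counted. Taken singly, 32.8% of all genes lay wholly above WT6 in KO7, and 33.5% wholly below it in KO3. The values were 0.60 and -0.20 for Ifnar2, 0.37 and -0.63 for Il10rb, 0.41 and -0.44 for Socs3, 0.63 and -0.18 for Stat2, 0.90 and -0.38 for Tlr7, and 0.29 and -0.42 for Zbp1. The edgeR test of KO3 against KO7 called all 6 lower in KO3. Opposite sides of WT6 already fix that direction, so nothing further is read from these calls. Each knock-out group is 1 leukemia, so a difference between clones and one between mice cannot be told apart.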

How the results depend on the processing

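Counts of pathway genes called stayed within 1.5 times of the reported ones in all 226 recomputations. Many of these could hardly move. The counts between genotypes were 0 throughout, and some libraries left out belonged to groups not compared. Leaving out a library also does not probe the spread between leukemias. The log2 differences of members stayed within a set spread in 967 of 972. That spread was the one of replicates between groups, but the one of leukemia means between genotypes. The latter is wide, and 7 of the 9 members turned sign between genotypes when 1 leukemia was left out. The largest move was that of Oas2 between genotypes, to 1.52 without WT0 with PBS. In KO3 against WT6, Pde12 and Abce1 lost the call under some alternatives, Abce1 with DESeq2 (log2 -0.06), with only the groups compared (-0.04) and without replicate 1 or 3 of KO3 or replicate 2 of WT6 (-0.06, -0.04 and -0.05). Ifngr2 in KO7 against WT6 lost it with DESeq2 (-0.14) and without replicate 1 of KO7 or replicate 3 of WT6 (-0.14 and -0.12). The cause was not tested.

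No pairing by replicate number was seen. Deviations of same-numbered libraries from their group means correlated at -0.152 to 0.097, and not all correlated best with their own number. With 3 libraries a group, this cannot show that the samples were unpaired by design. With the replicate number as a block, 38 pathway genes rose and 15 fell with ERG-245, and 39 and 17 in KO7 against WT6, beside 39 and 18 without it. The members' log2 differences stayed within the spread of replicates with it.

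With 1200 or more counts per library Oas1e is precise with ERG-245, while its other groups, at 7 to 27 counts, and Oas1g are limited by depth.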
